A study of Mus musculus with 21 samples.

Results

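The 62 genes described here are the neighbours of *Erbb2* on mouse chromosome 11 (GRCm38): every gene of the deposited expression table that starts between 97.3 and 99.1 Mb, without *Erbb2* itself. They are defined by position, out of 23203 genes in that table, and 51 of them are protein coding. *Erbb2*, at 98412470 to 98437716, served only as the centre of the map. Bulk RNA sequencing had been carried out on mammary tumors of virgin female mice. The 9 NeuNT control tumors came from 9 mice, of which 7 were Gata4(loxP/+);FloxNeoNeuNT;MMTV-CreNLST (N-1, N-3, N-4, N-6, N-7, N-8 and N-9) and 2 were FloxNeoNeuNT;MMTV-CreNLST (N-15 and N-17). The 12 RhoC tumors were R26(RhoC/+);FloxNeoNeuNT;MMTV-CreNLST and were taken from 8 mice. Mouse P497 gave 4 of them and mouse N9255 gave 2. The mouse of R-18 is not in its label, and R-18 was counted as a mouse of its own. The label of R-21 names a mouse that the paper's supplement lists for a different tumor, and the label was used. By genotype, all mice carry Cre under the MMTV promoter, which is active in mammary epithelium, and an allele of the *Erbb2* locus that makes NeuNT, an oncogenic form of ErbB2, once Cre has cut out a floxed stop. Whether the stop had been removed in each tumor was not analysed here. The RhoC transgene sits at Rosa26 and also needs Cre. The labels give no ages, and tumors of 1 mouse are not independent.

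*Erbb2* codes for a receptor tyrosine kinase that drives a class of breast cancers when its gene is gained in many copies. Such gains take a stretch of the chromosome with them, so that neighbours without any link to receptor signalling can be raised together with it, and the ends of the stretch differ between tumors. *Grb7*, an adaptor protein that binds ErbB2, *Mien1*, *Pgap3* and *Stard3* lie close to it in both mouse and human. The data here are RNA levels. DNA copy number was not analysed here, and a raised RNA level of a run of genes is reported as that only. In bulk RNA, fewer cells of a type and less RNA per cell cannot be told apart.

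Total counts per tumor ranged from 47309780 to 100741339, and 53 of the 62 genes passed the filter on low counts. For each tumor the difference was taken between its log2 CPM (counts scaled to library size) and the median of the 12 RhoC tumors, and a gene was called raised in a tumor at a log2 difference of 1 or more, which is 2-fold. The reference is the RhoC cohort, so differences of RhoC tumors lie around 0 by construction. Over all 19315 tested genes, the share raised was 14.1% in N-1, 13.7% in N-3, 16.7% in N-4, 12.4% in N-6, 12.6% in N-7, 9.3% in N-8, 13.2% in N-9, 10.1% in N-15 and 19.6% in N-17. Over the RhoC tumors, 9.55% of all pairs of a gene and a tumor were raised. Of the tested neighbours of *Erbb2*, 39 of 53 were raised in N-8, 38 in N-17, 17 in N-1 and in N-9, 12 in N-7, 11 in N-6, 10 in N-3, 8 in N-4 and 5 in N-15. The share in N-15, 9.43%, was thus near that of all genes, and the share in N-4, 15.1%, was below its background. N-8 and N-17 stood far above theirs, at 73.6% and 71.7%. Neighbours of *Erbb2* took a median of 1.25% of all counts in control tumors (0.314% to 6.88%) and 0.429% in RhoC tumors (0.233% to 0.622%), the highest being N-8 and N-17 at 6.88% and 4.55%.

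**Figure D1:**
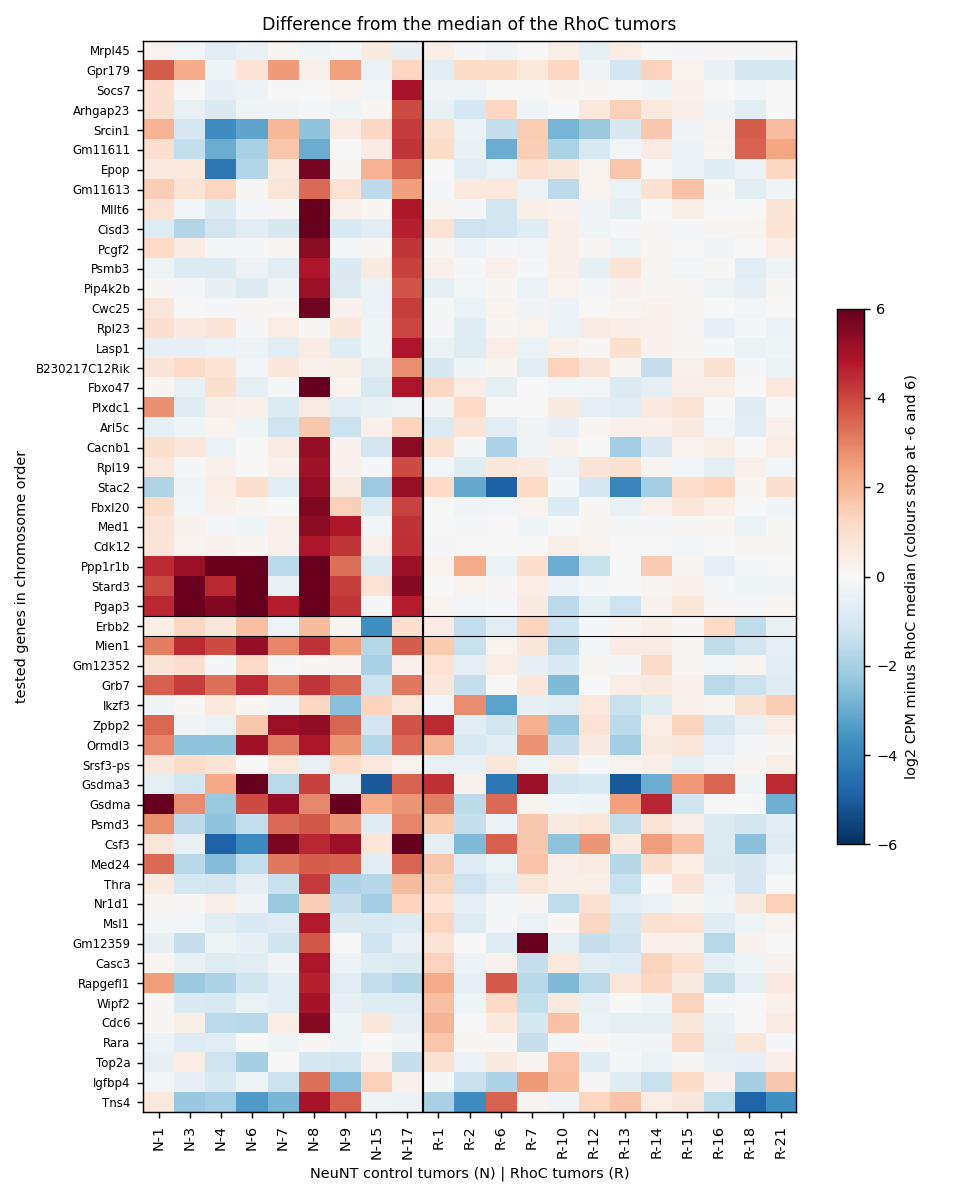
Log2 CPM of each of the 53 tested neighbours and of *Erbb2* (framed row) minus the median of the 12 RhoC tumors, with genes in chromosome order from top to bottom and tumors in columns, controls left of the black line. Red runs around *Erbb2* differ in length between control tumors, are longest in N-8 and N-17 and are missing in N-15.

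A block was followed outwards from *Erbb2* gene by gene and ended at the last raised gene before more than 2 tested genes in a row that were not raised. By this rule 8 of the 9 control tumors held a block, and N-15 held none. N-15 held *Stard3* alone when a gene had to lie above the highest RhoC tumor, and a run from *Ikzf3* to *Gsdma* (213 kb) when 5 genes could be missed. The length of a block, from the start of the first to the end of the last raised gene, had a median of 340.8 kb over the 9 control tumors, with N-15 at 0 and N-8 the longest at 2407 kb. When a gene had to lie above the highest RhoC tumor, N-17 was the longest, at 1225 kb against 734 kb in N-8. The median length was 107 kb when no gene could be missed and 641 kb when up to 5 could, so lengths and their order hold for the block rule used here only. With no gene missed, the block was 90.6 kb in N-1 and N-4, 50.3 kb in N-7, 356 kb in N-9 and 449 kb in both N-8 and N-17. In these tumors it ended on the right at *Mien1*. There the next gene, *Gm12352*, which overlaps *Mien1*, was not raised, while *Grb7* beyond it was. In N-3 and N-6 the block was 107 kb. With 5 missed it was 329 kb in N-3, 290 kb in N-4 and 641 kb in N-6. The stretch that all 8 blocks shared ran from the start of *Pgap3* to the end of *Grb7* (98388677 to 98455373, 66.7 kb) and held *Pgap3*, *Mien1*, *Gm12352* and *Grb7* beside *Erbb2*. Genes on either side of it were in the block of some control tumors and not of others. Ends and next genes are those among the tested neighbours.

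**Figure D2:**
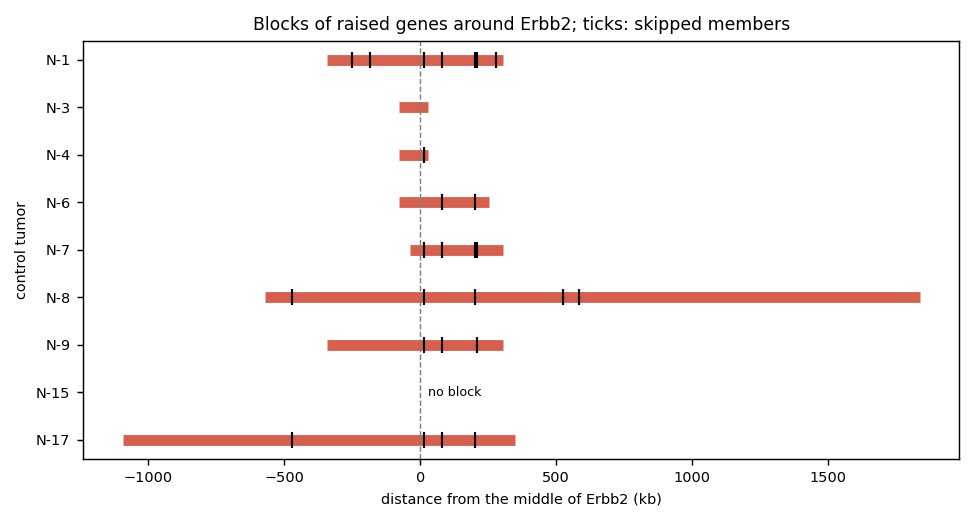
Extent of the block of raised genes in each control tumor (bars), as distance in kb from the middle of *Erbb2*, with black ticks at tested neighbours inside the block that were not raised. All bars cover the stretch from *Pgap3* to *Grb7*, and they reach from 107 kb in N-3 and N-4 to 2407 kb in N-8.

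The shortest blocks under this rule were those of N-3 and N-4, which both ran from *Ppp1r1b* to *Grb7* over 107 kb. When a gene had to lie above the highest RhoC tumor, the block of N-3 began at *Med1* and was 303 kb long, against 290 kb in N-6. In N-3 all 6 tested genes of the block were raised, from *Gm12352* at a log2 difference of 1.06 to *Stard3* at 5.93. The next genes outside, *Cdk12* and *Ikzf3*, were at 0.21 and 0.06. In N-4 the block was led by *Ppp1r1b*, the dopamine-regulated phosphatase inhibitor also called DARPP-32, at 7.26. The gap between *Cdk12* (0.25) and *Ppp1r1b* in N-4 is 69.9 kb long and holds no tested gene, so the rule cannot place the left end more closely. *Gm20644*, below the filter, lies in this gap and had 1 count in N-4. On the right the step fell between *Grb7* (3.32) and *Ikzf3* (0.64), which lie 9.53 kb apart.

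N-6 shared the left end at *Ppp1r1b* (7.93) but reached further right, to *Gsdma*, for a length of 329 kb. Here *Zpbp2* (1.63) and *Ormdl3* (5.07) were raised, and *Ormdl3*, a regulator of sphingolipid synthesis, was at its highest among controls. The next gene, *Psmd3*, a subunit of the proteasome cap, was at -1.50 in N-6 and lies 4.85 kb beyond *Gsdma*. The highest value of the block was that of *Gsdma3* at 9.48. *Gsdma* is a weak right end, since it was raised in 8 controls and in 4 RhoC tumors. At 3.62 CPM in N-6 it lay below the highest RhoC tumor, at 5.80 CPM. When a gene had to lie above the highest RhoC tumor, the block of N-6 ended at *Gsdma3* and was 290 kb long.

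N-7 was the only control tumor whose block began inside the row *Ppp1r1b*, *Stard3*, *Pgap3*. *Stard3*, a cholesterol-binding protein of late endosomes, was at -0.46 and *Ppp1r1b* at -1.59, whereas *Pgap3*, which remodels the lipid of GPI anchors, was at 4.69. The end of *Stard3* and the start of *Pgap3* lie 7.57 kb apart. On the right the block reached *Med24*, a subunit of the Mediator complex, at 3.18, and the next gene, *Thra*, the thyroid hormone receptor alpha, was at -1.31 and 11.2 kb away. The length of this block was 341 kb. Without the filter on low counts it ran from *Tcap* to *Ormdl3* over 204 kb.

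N-1 and N-9 had the same ends under the rule, *Fbxl20* and *Med24*, and a length of 647 kb, but differed on the left. In N-9, *Med1* (4.82), the Mediator subunit that binds nuclear receptors, and *Cdk12* (4.29), a kinase of elongating RNA polymerase II, were raised at least as far as *Pgap3* (4.27), and *Fbxl20* (1.41), which directs proteins to breakdown, was raised least of the 3 leftmost genes. In N-1, *Fbxl20* (1.09) was just inside the threshold and *Med1* (0.81) and *Cdk12* (0.78) just outside it, while *Ppp1r1b* was at 4.49. At a threshold of a log2 difference of 2 the block of N-1 began at *Ppp1r1b*, as in N-3, N-4 and N-6, and had a length of 381 kb. It began at *Plxdc1* and was 806 kb long when a gene had to lie above the highest RhoC tumor. The same block was found when R-1, among others, was left out of the reference. With library size alone it began at *Rpl23* and was 952 kb long. On the right both tumors stepped down between *Med24* (3.41 in N-1 and 3.60 in N-9) and *Thra* (0.54 and -1.85). When a gene had to lie above the highest RhoC tumor, the block of N-9 ended at *Grb7* and was 373 kb long.

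N-17 had a run with few gaps, from *Gpr179* at the left edge of the window to *Nr1d1*, for 1443 kb. Of 42 tested genes in it, 38 were raised, at a median log2 difference of 4.02. *Socs7* (4.94), a gene of the cytokine signalling suppressor family, *Lasp1* (4.87), which codes for an actin-binding protein, and *Arhgap23* (3.93) were raised in N-17 and in no other control tumor. On the left the step fell between *Mrpl45* (-0.49) and *Gpr179* (1.30), but *Gpr179* was also raised in 4 other controls and in 4 RhoC tumors. *Socs7*, the first gene there that was raised in 1 control tumor only, is the firmer left end, and it was the end found at a threshold of 2. On the right the level came down in steps, with *Med24* at 3.48, *Thra* at 1.91, *Nr1d1* at 1.39 and *Msl1* at -0.80.

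N-8 was raised over the most neighbours but with interruptions. Its block under the rule ran from *Fbxo47* to *Krt17*, 2407 kb, and left the window on the right. *Fbxo47* (6.76) was its highest gene, and *Msl1* (4.75), *Casc3* (4.84), *Wipf2* (4.99) and *Cdc6* (5.47) on the right were raised in no other control tumor. Further left, beyond 3 genes at the level of the RhoC tumors, a second run of 8 genes from *Epop* to *Cwc25* (97627389 to 97766556) was raised at a median log2 difference of 5.56. The 3 genes between were *Rpl23* (0.11), *Lasp1* (0.50) and *B230217C12Rik* (0.30). In N-17 the same 3 genes were at 3.99, 4.87 and 2.79. When 5 genes could be missed, both runs of N-8 joined into a block of 2634 kb from *Epop*. When a gene had to lie above the highest RhoC tumor, the block ended at *Ormdl3* instead, with a length of 734 kb.

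**Figure D3:**
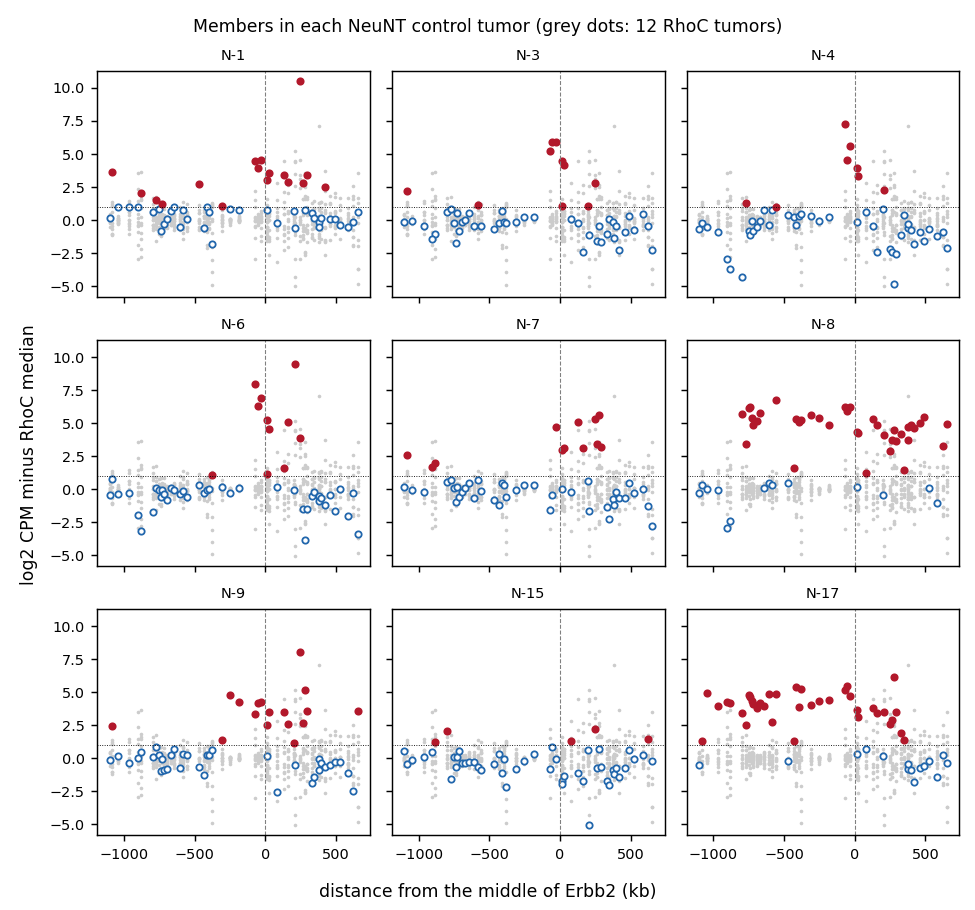
Log2 CPM minus the RhoC median (vertical axis) of the 53 tested neighbours against distance from the middle of *Erbb2* in kb, with a panel for each control tumor. Filled red points are raised (at or above the dotted line at 1), open points are not, and grey dots are the 12 RhoC tumors. N-3 and N-4 are raised next to *Erbb2* with sharp sides, and N-8 shows raised genes on both sides of unraised ones.

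Promoters of 29 of the 62 neighbours are in the RefSeq table used (GRCm38.p6). The sequences of the tested genes on both sides of 2 left-hand steps are shown, with that of a gene raised from a very low level, so that genes that parted in RNA level can be set side by side. Each is the 250 bases before the start of transcription on the gene's own strand, with CG dinucleotides in capitals.
Cwc25: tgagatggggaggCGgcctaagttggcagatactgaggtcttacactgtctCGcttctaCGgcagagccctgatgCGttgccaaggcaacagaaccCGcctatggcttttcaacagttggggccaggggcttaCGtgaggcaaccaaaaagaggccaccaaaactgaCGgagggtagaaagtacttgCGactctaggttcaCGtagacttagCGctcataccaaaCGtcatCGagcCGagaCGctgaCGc
Rpl23: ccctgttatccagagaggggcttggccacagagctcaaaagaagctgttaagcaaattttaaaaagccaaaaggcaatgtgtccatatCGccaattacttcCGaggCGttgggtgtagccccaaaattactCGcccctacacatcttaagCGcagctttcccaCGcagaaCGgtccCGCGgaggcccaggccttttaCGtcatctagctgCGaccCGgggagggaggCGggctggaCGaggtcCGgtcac
Stard3: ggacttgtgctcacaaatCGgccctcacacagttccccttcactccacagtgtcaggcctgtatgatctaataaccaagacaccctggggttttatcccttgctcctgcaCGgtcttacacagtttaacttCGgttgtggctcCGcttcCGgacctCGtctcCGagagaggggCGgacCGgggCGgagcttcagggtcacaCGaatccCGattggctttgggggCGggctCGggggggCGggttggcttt
Pgap3: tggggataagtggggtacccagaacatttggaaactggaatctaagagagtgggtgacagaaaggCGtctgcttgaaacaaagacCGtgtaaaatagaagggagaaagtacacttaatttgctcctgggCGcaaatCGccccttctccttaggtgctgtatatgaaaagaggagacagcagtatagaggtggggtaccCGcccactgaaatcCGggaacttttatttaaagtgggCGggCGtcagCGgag
Zpbp2: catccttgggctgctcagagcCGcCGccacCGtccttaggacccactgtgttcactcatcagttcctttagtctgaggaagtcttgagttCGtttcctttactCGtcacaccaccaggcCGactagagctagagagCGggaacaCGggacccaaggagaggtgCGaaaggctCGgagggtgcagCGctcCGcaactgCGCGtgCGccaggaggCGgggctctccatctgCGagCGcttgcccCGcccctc
*Cwc25* (chr11:97766614-97766863, minus strand) and *Rpl23* (chr11:97782440-97782689, minus strand) are, among tested genes, the last raised and the first unraised one at the right end of the left run in N-8, at log2 differences of 5.81 and 0.11, and both held 15 CG dinucleotides. *1700001P01Rik*, below the filter and with 315 counts in N-8, lies between them. *Stard3* (chr11:98358118-98358367, plus strand) and *Pgap3* (chr11:98400491-98400740, minus strand), which parted in N-7, held 15 and 9. *Zpbp2* (chr11:98550847-98551096, plus strand), a gene of sperm development, held 19. Among all 32851 promoters of the table the median was 6, and 27.3% held at least 15, 40.3% at least 9 and 19.7% at least 19. Among the 36 promoters of the neighbours the median was 15. These counts describe the sequences and were not tested against the RNA levels.

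The cohorts were compared gene by gene with edgeR's quasi-likelihood test over all 19315 tested genes. With adjusted p under 0.05, 7 of the 53 tested neighbours were lower in RhoC tumors and 0 were higher, against 0.129% lower and 0.0932% higher among all genes. The 7 genes were *Med1*, *Cdk12*, *Ppp1r1b*, *Stard3*, *Pgap3*, *Mien1* and *Grb7*, which among the tested genes follow each other on the chromosome apart from *Erbb2* and the antisense gene *Gm12352*. With the mouse as a random effect in limma's voom fit, only *Stard3*, *Pgap3* and *Grb7* kept the call. At an unadjusted edgeR p under 0.05 stood 39 of the 53, of which 38 were lower and 1, *Top2a*, was higher. That is 71.7% lower and 1.89% higher, against 9.93% and 10.5% of all tested genes at the same threshold. Among the 38 were *Msl1*, *Casc3*, *Wipf2* and *Cdc6*, of the controls raised in N-8 alone. *Socs7*, *Rpl23* and *Lasp1*, raised in N-17 alone, were also among them. This count was not redone without N-8 and N-17. The median log2 fold change (RhoC over control) of the neighbours was -2.01, and that of all tested genes was -0.005. It was -0.57 with DESeq2 (35 of 53 negative), -0.75 with the mouse as a random effect (40 of 53) and -0.13 with the tumor number as a replicate block, over the 4 numbers found in both cohorts (28 of 53). Control tumors with long blocks weighed on this median. Without N-8 and N-17, an alternative chosen after seeing the data, it was -0.15, with 30 of 53 neighbours lower rather than 48, and 5 genes passed the test (*Ppp1r1b*, *Stard3*, *Pgap3*, *Mien1* and *Grb7*).

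**Figure D4:**
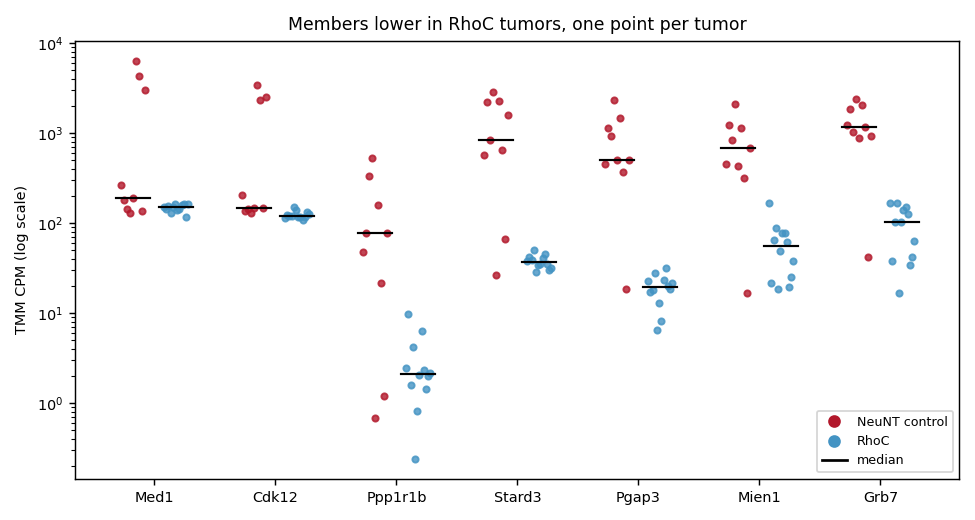
CPM of the 7 neighbours that passed the test, with a point for each tumor on a log axis and black bars at the medians. For *Stard3*, *Pgap3*, *Mien1* and *Grb7*, 8 of 9 control tumors lie above the highest RhoC tumor, and for *Med1* and *Cdk12* 3 control tumors lie far above the rest.

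*Pgap3* (98388677 to 98400490) was raised in 8 control tumors and in no RhoC tumor. Its median was 501.5 CPM in control tumors (18.4 to 2345 CPM) and 19.4 CPM in RhoC tumors (6.58 to 31.6 CPM). The lowest control was N-15, and the other 8 lay above every RhoC tumor. The log2 fold change was -5.49 (SE 0.53, edgeR adjusted p = 1.15e-05). *Stard3* (98358368 to 98381112) had a median of 842 CPM in control tumors (26.8 to 2868 CPM) and of 36.8 CPM in RhoC tumors (28.7 to 49.9 CPM). Of the controls only N-7, at 26.8 CPM, lay within or below the RhoC range, and N-15, at 67.0 CPM, lay just above it. Its log2 fold change was -5.04 (SE 0.56, edgeR adjusted p = 7.16e-05).

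To the right of *Erbb2*, *Mien1* (98437708 to 98438991), which codes for a small membrane-anchored protein linked to cell migration, ran from 16.9 to 2126 CPM in control tumors and from 18.7 to 166.5 CPM in RhoC tumors, with medians of 683 and 55.7. *Grb7* ran from 42.2 to 2422 CPM and from 16.8 to 168 CPM, with medians of 1172 and 104. For both genes N-15 was inside or below the RhoC range and the other 8 control tumors lay above it. The log2 fold changes were -3.77 for *Mien1* (SE 0.55) and -3.74 for *Grb7* (SE 0.49), with edgeR adjusted p of 0.00266 and 0.000998. With the mouse as a random effect *Mien1* lost the call and *Grb7* kept it (limma adjusted p = 0.0848 and 0.0459). The last 9 bases of *Mien1* overlap the end of *Erbb2* on the opposite strand, and *Gm12352* covers 955 bases of *Mien1* on the other strand. Whether strand was used in counting is not given in the sources used here.

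*Ppp1r1b* (7 raised control tumors) ran from 0.683 to 525 CPM in controls with a median of 78.2 and from 0.242 to 9.88 CPM in RhoC tumors with a median of 2.12. N-7 and N-15 lay inside the RhoC range and the other 7 above it. The log2 fold change was -5.54 (SE 0.88, edgeR adjusted p = 0.00736), and with the mouse as a random effect the call was lost (limma adjusted p = 0.239). *Med1* and *Cdk12* differed from these 5 genes in that 3 control tumors carried the change. *Med1* was at 6397 CPM in N-8, 4332 in N-9 and 3042 in N-17, against 129 to 268 CPM in the other 6 control tumors and 116 to 166 CPM in RhoC tumors. *Cdk12* was at 3429, 2349 and 2519 CPM in the same 3 tumors, against 129 to 205 CPM in the others and 108 to 152 CPM in RhoC tumors. Their log2 fold changes were -3.47 (SE 0.67, edgeR adjusted p = 0.0311) and -3.04 (SE 0.59, edgeR adjusted p = 0.0315). Both calls were lost when N-8 or N-9 was left out (adjusted p = 0.0621 and 0.0608 for both genes), and in 8 of the 21 fits that left out 1 tumor, with adjusted p up to 0.0621.

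The number of calls depended on the tumors and on the tool. It was 18 without N-15 and 12 without N-6. It fell to 3 (*Stard3*, *Pgap3* and *Grb7*) when the counts of each mouse were summed, when the mouse was a random effect in limma's voom fit and when the 4 tumors of mouse P497 were left out. DESeq2, which replaces counts it takes as outliers in groups of this size, gave 24 neighbours lower and 2 higher, against 2.58% lower and 3.13% higher among all 25184 genes it tested. It was run without the filter on low counts, and 6 of the 24 were below that filter, which left 18 among the 53. The 2 higher genes, *Msl1* and *Wipf2*, had log2 fold changes of 0.89 and 0.99 there against -1.51 and -1.57 by edgeR. Without N-8 edgeR gave 0.94 and 1.04 for them. The direction of these genes and of *Casc3* and *Cdc6*, also raised in N-8 and in no other control, is therefore not given as a cohort difference. Without N-8, *Casc3* went from -1.63 to 0.76 and *Cdc6* from -1.99 to 0.65. In all, 9 of the 53 genes turned without N-8, the others being *Rapgefl1* (-0.74 to 1.07), *Igfbp4* (-0.23 to 0.82), *Thra* (-1.40 to 0.17), *Nr1d1* (-0.01 to 0.26) and *Arl5c* (-0.26 to 0.03).

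**Figure D5:**
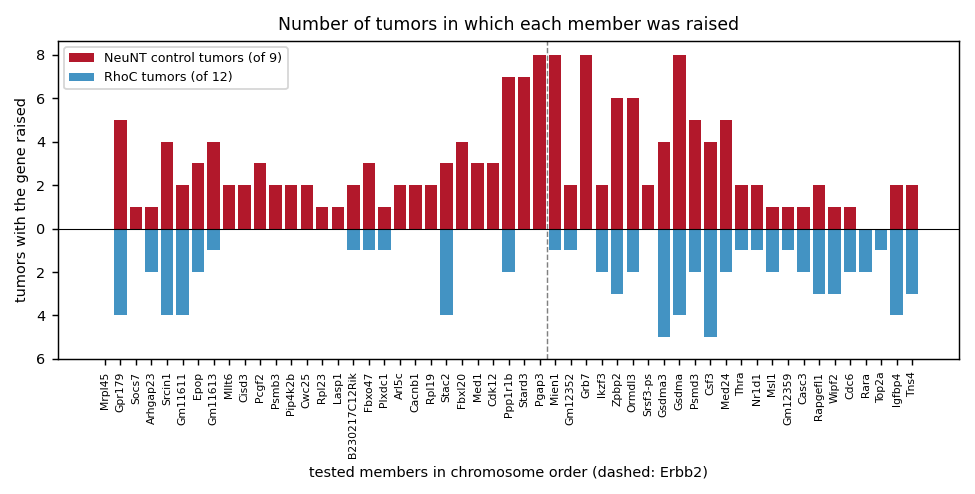
Number of control tumors (upward bars, of 9) and RhoC tumors (downward bars, of 12) in which each tested neighbour was raised, with genes in chromosome order and a dashed line at *Erbb2*. Counts peak at 8 controls for *Pgap3*, *Mien1* and *Grb7* beside *Erbb2*, and *Gsdma* also reached 8, with 4 RhoC tumors raised.

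By role, and with 0.129% of all tested genes lower by edgeR as background for each list, 3 of 11 tested genes of receptor signalling and adaptors were lower in RhoC tumors (*Ppp1r1b*, *Mien1* and *Grb7*). With the mouse as a random effect *Ppp1r1b* (adjusted p = 0.239) and *Mien1* (adjusted p = 0.0848, both limma) lost the call. The median log2 fold change of the list was -1.57 with all tumors, -0.74 without N-8 and -0.17 without N-8 and N-17. *Csf3*, the growth factor of neutrophils, was raised in 4 controls and in 5 RhoC tumors. It ran from 0.042 to 153 CPM in controls and from 0.301 to 24.9 CPM in RhoC tumors, and its log2 fold change of -2.86 (SE 1.06) did not pass the test (edgeR adjusted p = 0.151). DESeq2 called *Csf3* lower (adjusted p = 0.045). The *Csf3* level split the controls, with N-7, N-8, N-9 and N-17 at 47.5 CPM or more and the other 5 at 3.47 CPM or less. N-1, whose block held both its neighbours *Psmd3* and *Med24*, was among the low ones, and *Csf3* was skipped there (0.74).

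*Tns4* and *Igfbp4*, at the right end of the window, were both raised in N-8 (4.96 and 3.31). *Tns4*, a focal adhesion protein of epithelial cells, was also raised in N-9 (3.59), beyond the end of its block, and in 3 RhoC tumors, of which R-6 was highest at 3.55. Its range in RhoC tumors, 9.55 to 3135 CPM, overlapped all controls but N-8 and N-9, the latter only just, at 3230 CPM. *Igfbp4*, which binds insulin-like growth factors, was also raised in N-15 (1.43), which had no block, and in 4 RhoC tumors.

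Of the 10 tested genes of transcription and Mediator, *Med1* and *Cdk12* were lower in RhoC tumors. With the mouse as a random effect neither kept the call (limma adjusted p = 0.301 and 0.278). The list had a median log2 fold change of -1.89 with all tumors, -0.83 without N-8 and 0.22 without N-8 and N-17. *Mllt6* and *Pcgf2*, both of chromatin complexes, were at log2 differences of 6.13 and 5.41 in N-8 and 4.80 and 4.31 in N-17, and *Pcgf2* at 1.22 in N-1. Neither passed the edgeR test (adjusted p = 0.0536 for both), while DESeq2 called both lower (adjusted p = 0.0263 and 0.0224). *Med24* was raised in 5 controls, N-1, N-7, N-8, N-9 and N-17, at 1119 to 1544 CPM, and lay at 20.5 to 80.9 CPM in the other 4. The RhoC tumors, at 38.2 to 405 CPM with a median of 128 CPM, lay below the 5 raised controls and overlapped the other 4, of which only N-4 was below all of them. *Thra* and *Nr1d1*, which overlap by 1075 bases on opposite strands, were raised among controls in N-8 and N-17 only, and *Nr1d1*, a repressor of the circadian clock, by no more than 1.49 there. *Thra* was also raised in R-1 (1.33) and *Nr1d1* in R-21 (1.42).

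None of the 8 genes for synthesis or breakdown of RNA and protein passed the edgeR test, while DESeq2 called *Cwc25*, *Fbxl20* and *Psmd3* lower (adjusted p = 0.0338, 0.0328 and 0.0339). Their median log2 fold change was -2.28 with all tumors, -1.68 without N-8 and -0.13 without N-8 and N-17. *Psmb3* went from -2.43 to 0.46 when both were left out. *Rpl19*, a protein of the large ribosomal subunit, was at 3048 CPM in N-8 and 1344 CPM in N-17 and at 83.3 to 138 CPM in the other 7 controls. *Rpl23*, of the same subunit, was raised in N-17 alone, at 2139 CPM, and lay at 112 to 265 CPM in the other 8 controls. *Psmd3* moved with *Med24*, with 2090 CPM or more in the same 5 controls and 200.1 CPM or less in the other 4. *Psmb3*, another proteasome subunit, was raised in N-8 (4.83) and N-17 (4.11) only.

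Of the 4 genes of membrane lipids and anchors, *Stard3* and *Pgap3* were lower in RhoC tumors, also with the mouse as a random effect (limma adjusted p = 0.0459 and 0.00467). *Ormdl3* was raised in 6 controls, at 551 CPM or more, and lay at 16.4, 16.7 and 27.3 CPM in N-3, N-4 and N-15. Its log2 fold change was -2.72 (SE 0.79, edgeR adjusted p = 0.0897), and DESeq2 called it lower (adjusted p = 0.00998). The 3 low controls were below the RhoC median of 88.7 CPM, and of the 6 raised controls N-9, at 551 CPM, lay inside the RhoC range of 21.2 to 567 CPM. *Pip4k2b*, a lipid kinase, was raised in N-8 (5.17) and N-17 (3.78) only.

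The gasdermins, which form pores in membranes of skin and gut epithelium, were the least even members. *Gsdma* was raised in 8 controls and 4 RhoC tumors, at 363 CPM in N-1, 65.3 CPM in N-9, 9.53 CPM in N-7, at most 3.62 CPM in the other controls and at most 5.80 CPM in RhoC tumors. The summed level of the keratinocyte markers (3 of the 4 listed genes were found) was 415.5 CPM in N-1, 44.7 CPM in N-7 and 16.9 CPM in N-9, and at most 1.92 CPM in the other 6 controls. In RhoC tumors it was 0.619 to 19.9 CPM. The part of such cells in the *Gsdma* level was not tested. *Gsdma3* was at 736 CPM in N-6 and at most 17.8 CPM in other controls, and N-6 held keratinocyte markers at 0.646 CPM. Neither gasdermin passed the edgeR test (adjusted p = 0.0606 for *Gsdma* and 0.217 for *Gsdma3*). DESeq2 called *Gsdma* lower (adjusted p = 0.00455) but not *Gsdma3* (adjusted p = 0.879). The log2 fold change of *Gsdma3* was -3.32 with all tumors and 0.91 without N-6.

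The genes of DNA replication, *Cdc6* and *Top2a*, went apart with all tumors, at log2 fold changes of -1.99 and 0.80. Without N-8 both were positive, at 0.65 and 0.75, and neither passed the test. *Cdc6*, which loads the replicative helicase, was at 595 CPM in N-8 and at most 21.2 CPM in other controls. *Top2a*, the topoisomerase that is sometimes gained with *ERBB2* in human tumors, was raised in no control and lay at 66.2 to 359 CPM in controls and 161 to 872 CPM in RhoC tumors, with overlap and no call (log2 fold change 0.80, SE 0.33, edgeR adjusted p = 0.187). The summed cycling markers were at 134 to 654 CPM in controls and 135 to 571 CPM in RhoC tumors.

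Among genes of restricted tissues, *Cacnb1*, a subunit of the muscle calcium channel, and *Stac2* were raised in N-8 and N-17. The summed skeletal muscle markers were at 0.90 CPM in N-8 and 2290 CPM in N-17, the highest of all tumors, and their part in the N-17 level was not tested. *Cacnb1* was at log2 differences of 5.29 and 5.41 and *Stac2* at 5.26 and 5.23, and *Stac2* was also raised in N-6 (1.04) and in 4 RhoC tumors. *Zpbp2* was raised in 6 controls, N-1, N-6, N-7, N-8, N-9 and N-17, which were the same 6 as for *Ormdl3* beside it, and in 3 RhoC tumors. Its levels stayed low, at 0.448 to 6.07 CPM in those 6 and 0.101 CPM or less in the other 3. R-1, at 3.44 CPM, lay above 4 of the 6, and the cohort difference did not pass the test (edgeR adjusted p = 0.217). Per length, the deposited FPKM of *Zpbp2* had a median of 0.976 in controls and 0.0762 in RhoC tumors, and that of *Grb7* 448 and 40.8.

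Skipped genes, inside a block but not raised, were mostly of low level. *Gm12352* was skipped in 6 of 8 blocks, *Ikzf3* in 5 of 6, *Srsf3-ps* in 5 of 6 and *Gsdma3* in 3 of 6. *Gm12352*, *Ikzf3* and *Srsf3-ps* had RhoC medians of 0.14, 0.04 and -1.02 log2 CPM. *Ikzf3*, a transcription factor of lymphocytes, was at 0.149 to 2.54 CPM in controls, and its highest value of all was 7.30 CPM in R-2, which also had the highest summed B cell markers (2.56 CPM, 3 of 4 found) and T cell markers (30.6 CPM). N-9, the control with *Ikzf3* lowest (-2.51), had the lowest summed leukocyte markers of the controls (63.9 CPM, range to 351.5 CPM). The part of lymphocytes in the *Ikzf3* level was not tested. *Plxdc1*, a gene of tumor blood vessels, was skipped in both blocks that held it, N-8 (0.50) and N-17 (-0.21), between raised neighbours.

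Of skipped genes with a higher level, *Rara*, the retinoic acid receptor alpha, and *Top2a* stood out in N-8. Both lie between *Cdc6* (5.47) and *Igfbp4* (3.31), and they were at 0.06 and -1.01 there. *Rara* had a narrow range over the controls, 20.5 to 36.3 CPM, and was raised in none of them. *Med1* and *Cdk12* were skipped in N-1 by a small margin, as given above.

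Of the 12 RhoC tumors, 3 had a raised gene within reach of *Erbb2* under the same rule, and 9 had none. In R-1 it was *Mien1* alone (1.59), in R-2 *Ppp1r1b* alone (2.20), and in R-14 *Ppp1r1b* (1.55) and *Gm12352* (1.17) with *Stard3*, *Pgap3* and *Mien1* between them not raised. *Pgap3*, *Stard3* and *Grb7* were raised in no RhoC tumor, and their highest differences there were 0.71, 0.44 and 0.69. Over all tested neighbours, 12.3% of pairs of a gene and a RhoC tumor were raised, near the 9.55% of all genes. In controls the share of the neighbours was 32.9%, but RhoC tumors are the reference, which lowers their own share.

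Short runs of raised genes away from *Erbb2* were seen in R-1, R-7 and R-21. In R-1, 17 neighbours were raised (32.1%, against 8.56% of all genes), among them *Casc3*, *Rapgefl1*, *Wipf2*, *Cdc6* and *Rara* in a row at a median log2 difference of 1.81, *Gsdma3*, *Gsdma* and *Psmd3* in a row at a median of 3.09, and *Ormdl3* (2.02) and *Med24* (1.60). R-1 was the only tumor besides R-15 with *Rara* raised (1.67 and 1.14). In R-7, 11 neighbours were raised (20.8%, against 5.98%), with *Ormdl3* at 2.68, *Psmd3* at 1.62, *Csf3* at 1.61 and *Med24* at 1.71. R-6 and R-7 came from the same mouse, and *Med24* was at -0.39 and *Ormdl3* at -0.63 in R-6. In R-21 the run was *Srcin1*, *Gm11611* and *Epop*, at a median of 1.86. The raised genes of the control blocks had medians of 3.41 to 5.17.

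*Erbb2* itself was raised in fewer control tumors than *Pgap3*, *Mien1* or *Grb7*. It was raised in 3 of 9 controls, N-3 (1.22), N-6 (1.81) and N-8 (1.89), and in 2 RhoC tumors, and the log2 fold change was -0.73 (SE 0.46, edgeR adjusted p = 0.371). N-15, without a block, had *Erbb2* at 57.9 CPM, below the 599.7 CPM or more of the other 8 controls and below all RhoC tumors (256 to 1851 CPM). The summed epithelial markers of N-15 were 4193 CPM, within the control range of 1399 to 6354 CPM. How reads of the NeuNT cDNA were shared out between genes was not tested. N-15 and N-17, the 2 controls without the Gata4 loxP allele, had no block and the second longest one under the block rule used here.

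The 9 neighbours below the filter are given by their counts. *Gm20644*, between *Cdk12* and *Ppp1r1b*, had 283 counts in N-8, 643 in N-9 and 214 in N-17 and at most 14 in any other tumor, the same 3 tumors in which *Cdk12* was raised. *Gm11629*, between *Cacnb1* and *Rpl19*, had 507 counts in N-8 and 159 in N-17 and at most 11 elsewhere, and it overlaps both of those genes. *1700001P01Rik* had 315 and 181 counts in the same tumors and at most 20 elsewhere. *Gm12356*, which overlaps *Psmd3*, had 23 to 59 counts in N-1, N-7, N-8, N-9 and N-17 and 1 in each of the other 4 controls. *1700003D09Rik*, which overlaps *Ppp1r1b* on the other strand, had 5 to 63 counts in the 7 controls with *Ppp1r1b* raised and at most 1 in any other tumor. *Gm11630* had 43 counts in N-8 and 18 in N-17 and at most 11 elsewhere, *Atp5l2-ps* 2 to 18 over all tumors and *Gsdma2* at most 205, in R-1.

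*Tcap*, a protein of the muscle sarcomere that lies between *Stard3* and *Pgap3*, followed the blocks only in part, and DESeq2 called it lower in RhoC tumors. Its counts were 8 to 34 in N-1, N-6, N-7, N-8 and N-9. They were 3 in N-4, 4 in N-15 and at most 5 in RhoC tumors other than R-1 and R-10. It had 2271 counts in N-17, 251 in N-3, 176 in R-1 and 97 in R-10, and at most 34 in any other tumor. These were also the 4 tumors with the most skeletal muscle marker RNA, at 2290, 229.8, 248.5 and 474 CPM summed over 4 markers, with 103.6 CPM in R-13 and at most 17 CPM elsewhere. The part of muscle in the *Tcap* counts was not tested.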

How the data were processed

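Libraries were made with a stranded total RNA kit with ribosomal RNA depletion. The authors trimmed reads with Trim Galore (0.5.0), aligned them to GRCm38.p6 with STAR (2.6.0c), and deposited raw counts per gene from HTSeq (0.6.1p2), in which reads not placed uniquely, or on more than 1 gene, were not counted. The deposited table of the authors' DESeq2 run gave gene positions and FPKM, used here for levels per length only; its own fold changes and p-values, and those of a table from edgeR, were not used.

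Counts were normalized by TMM and tested with edgeR (4.0.16, quasi-likelihood, filterByExpr by cohort, Benjamini-Hochberg over 19315 genes) in R (4.3.3). SE is the absolute log2 fold change over the square root of F. Log2 CPM used a prior count of 2. Alternatives used DESeq2 (1.42.0), limma (3.58.1) voom, other size factors, no filter, counts summed per mouse, tumors left out and, for the map, other thresholds, gaps and references. Nothing in the labels says that tumors of a cohort with the same number are paired. The members and the lists of roles and markers were chosen with earlier results of these data known. Fold changes and calls are given for called members, for the 6 tested members nearest *Erbb2* on each side, for members on the role lists and for those DESeq2 called higher. Block ends, members skipped in at least 3 control blocks and members of the role lists are named from the map. *Ccr7*, *Neurod2*, *Smarce1*, *Pnmt*, *Gjd3*, *Krt222*, *Krt24* and *Lrrc3c* of these lists are outside the window or not in the deposited table and were not used. p-values treat tumors as independent except where mice were modelled.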

Additional observations from a re-analysis of the deposited data

Results flagged for a closer look

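Among the 9 control tumors, 56 quantities were examined for a highest or lowest tumor that stood apart from the rest by Dixon's ratio (above 0.493), and 16 did so. Chance flags about 1 in 20 such groups. Values are log2 CPM. N-17 stood above the others for *Socs7* (10.28, others 4.84 to 6.34), *Arhgap23* (9.40, others 4.60 to 6.42), *Rpl23* (11.06, others 6.81 to 8.05) and *Lasp1* (12.70, others 7.08 to 8.33), which are the genes raised in N-17 and in no other control. N-8 stood above the others for *Msl1* (12.15, others 6.49 to 7.23), *Gm12359* (2.98, others -2.09 to -0.74), *Casc3* (11.69, others 6.002 to 6.99), *Wipf2* (11.14, others 5.22 to 6.23) and *Cdc6* (9.22, others 2.11 to 4.41), which are the genes raised in N-8 alone. *Msl1*, *Gm12359* and *Casc3* overlap each other, so their reads may not be fully separate.

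N-15 stood below the others for *Pgap3* (4.20, others 8.55 to 11.20), *Mien1* (4.08, others 8.31 to 11.05), *Gm12352* (-1.81, others 0.03 to 1.29), *Grb7* (5.40, others 9.80 to 11.24) and *Erbb2* (5.86, others 9.23 to 11.41). N-1 was highest for *Plxdc1* (4.01, others 0.45 to 1.76), and N-9 was lowest for *Ikzf3* (-2.47, others -0.18 to 1.36).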

How the results depend on the processing

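The number of neighbours called lower ranged from 5 to 18 over the 21 fits that left out 1 tumor, highest without N-15. It was 24 with DESeq2 (2 higher; 6 of the 24 below edgeR's filter), 14 with only the 7 Gata4 loxP controls, 3 with counts summed per mouse, 3 with the mouse as a random effect and 3 without mouse P497. *Ppp1r1b*, *Stard3*, *Pgap3*, *Mien1* and *Grb7* were called in all 21 of those fits. Adding the tumor number as a replicate block gave 0 calls. The correlations of the deviations of same-numbered tumors were between -0.24 and 0.02, and only 4 numbers occur in both cohorts. They were not compared with tumors of different numbers, so whether same-numbered tumors share more than a number was not tested.

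Log2 fold changes turned in direction for genes without a call. With the replicate block 24 of the 53 turned, of which *Fbxl20* was at 0.054, *Gm12352* at 0.17, *Ikzf3* at -1.13, *Csf3* at 0.013, *Gsdma3* at 5.22, *Msl1* at 1.07, *Wipf2* at 1.17, *Casc3* at 0.67 and *Cdc6* at 0.68. With DESeq2 13 of the 53 turned. *Gsdma3* was at 0.34, *Msl1* at 0.89, *Wipf2* at 0.99, *Casc3* at 0.73 and *Cdc6* at 0.63, and *Arhgap23*, *Gm11611*, *Psmb3*, *Lasp1*, *Plxdc1*, *Stac2*, *Thra* and *Rapgefl1* at 0.16 to 1.21. With the mouse as a random effect 8 turned, and *Msl1* and *Wipf2* were both at 0.19. Without N-17 alone 5 turned, namely *Arhgap23*, *Srcin1*, *Gm11611*, *Lasp1* and *Nr1d1*, which were at 0.22 to 1.23. Without N-8 and N-17, 18 turned, and *Msl1*, *Wipf2*, *Casc3* and *Cdc6* were at 0.92, 1.01, 0.71 and 0.59. Over the fits without 1 tumor, the ranges were -1.66 to 0.94 for *Msl1*, -1.78 to 1.04 for *Wipf2*, -1.78 to 0.76 for *Casc3* and -2.26 to 0.65 for *Cdc6*, each highest without N-8, -3.85 to 0.91 for *Gsdma3*, highest without N-6, and -0.30 to 0.42 for *Ikzf3*, lowest without R-2.

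The median number of raised neighbours per control tumor was 10 to 16 under the other thresholds, scalings, filters and references (12 as reported). The median block length was 107 to 641 kb, the extremes being the settings with no gap and with a gap of 5 genes. Members below 1 CPM rest on few reads. Copy number, cell composition and read sharing with the NeuNT cDNA were not tested.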

Other observations

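Outside the window, the block of N-8 held 11 further tested genes on the right, up to *Krt17*, of which *Ccr7* (-1.30), *Krt10* (-0.10), *Gm11940* (-0.30), *Gm11560* (-0.03), *Krt14* (-1.66), *Krt15* (-2.51) and *Krt16* (-1.22) were not raised. Its right end rests on keratin genes whose level differs among tumors, and it moved to *Krt19* at a threshold of 2 and to *Krt26* without the filter on low counts, with lengths of 2295 and 1484 kb against 2407 kb.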
